A study of Mus musculus with 10 samples.

Results

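The platelet-derived growth factor (PDGF) system is described here through 6 genes, the 4 ligand genes *Pdgfa*, *Pdgfb*, *Pdgfc* and *Pdgfd* and the 2 receptor genes *Pdgfra* and *Pdgfrb*. They were taken by gene symbol from both deposited tables of gene expression. All 6 were present among the 17816 genes listed at day 7 and the 20007 listed in adult testis, out of 20142 genes in the tables together. All 6 passed the filter on low values in both. In adult testis *Pdgfb* and *Pdgfrb* did so only through the group where they were higher (below). The rule uses their symbols alone.

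The study compared mice with and without a conditional knockout of *Rnf20* in Sertoli cells, the somatic cells that nurse germ cells inside the seminiferous tubules. *Rnf20* is the gene of an E3 ligase that ubiquitinates histone H2B. The day 7 table holds 4 mRNA-seq samples of Sertoli cells from testes taken 7 days after birth, 2 labelled WT, which the study's methods give as *Rnf20* Flox/Flox, and 2 labelled *RNF20* conditional knockout, given as *Amh-Rnf20*-/-, in which Cre under the *Amh* promoter acts on floxed *Rnf20*. These were adherent cells that had been cultured and passaged after enzyme digestion of the tubules. The adult table holds 6 samples labelled testis, 3 WT and 3 *RNF20* conditional knockout, with no age in days and no further allele in the labels. All samples are labelled as not treated, and nothing in the labels says that they came from separate animals, so p-values measure the spread between these samples.

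PDGF ligands are secreted dimers that bind receptor tyrosine kinases on neighbouring mesenchymal cells. The A and B ligands are processed inside the cell, while the C and D ligands are secreted with a CUB domain that must be cut off before they can bind. In the testis, ligands made in the tubules are known to act on receptor-bearing interstitial and peritubular cells, and this exchange is known for its part in the formation of Leydig cells and of the layer around the tubules.

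The counts of a day 7 sample summed to between 17477268 and 17705347, and those of an adult sample to between 15431912 and 16574144. The targeted gene *Rnf20* stood at 16.64 and 16.01 FPKM (fragments scaled by transcript length and library size) in the day 7 WT samples and at 10.25 and 12.58 in the knockout samples. In adult testis *Rnf20* stood at 4.89, 3.32 and 4.09 FPKM in WT and at 9.16, 5.76 and 9.85 in the samples labelled conditional knockout, so the adult FPKM values of the targeted gene do not go in the direction of the labels. FPKM is scaled to the library total, and the direction of *Pdgfa* and *Pdgfc* in adult testis turned with the scaling (below). *Rnf20* is given in FPKM only. Spermatid markers were far lower in the samples labelled conditional knockout (values below), and groups are named by their labels throughout. In the day 7 cells the Sertoli cell markers *Sox9* (39.43 to 41.84 FPKM in WT) and *Wt1* (69.57 to 70.48) were present, and so were markers of peritubular myoid cells, with *Acta2* at 1058.09 to 1097.44, and of fibroblasts, with *Col1a1* at 1011.22 to 1045.82. At day 7 the knockout samples differed from each other by a chi-square per degree of freedom of 34.3, the WT samples by 2.65, and knockout replicate 2 from the WT samples by 22.5 and 20.7, less than from its own group. Among the adult samples labelled conditional knockout, replicate 1 stood apart: counts differed from those of replicates 2 and 3 by a chi-square per degree of freedom of 88.1 and 118, against 21.4 between replicates 2 and 3, and its germ cell markers were the lowest of the group, with the summed spermatogonium list at 11.41 FPKM against 250.6 and 413.7.

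The places of the 6 genes in the mouse genome are those of RefSeq on GRCm38.p6. *Pdgfa* lies at chr5:138976014-139000792, *Pdgfb* at chr15:79995865-80024614, *Pdgfc* at chr3:81036416-81214040 and *Pdgfd* at chr9:6168363-6534284. Of the receptor genes, *Pdgfra* lies at chr5:75151322-75198206 and *Pdgfrb* at chr18:61045127-61085067. The gene *Ddi1* lies within the span of *Pdgfd*, at 6265028 to 6266547. Its FPKM was 204.64, 221.47 and 235.18 in adult WT and 0, 3.82 and 4.09 in the samples labelled conditional knockout, the opposite order to that of *Pdgfd* below, and whether the counting used strand is not given in the sources used here.

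Promoter windows of 300 bases around a RefSeq start are printed for 3 members to set side by side a ligand gene that was lower at day 7, a ligand gene that was higher in both tables and the receptor gene with the widest difference in adult testis. RefSeq windows were matched for *Pdgfa*, *Pdgfc*, *Pdgfd* and *Pdgfra*. They run 5′ to 3′ on the strand of the gene, chr5:138994895-138995194 (minus) for *Pdgfa*, chr9:6168236-6168535 (plus) for *Pdgfd* and chr5:75152001-75152300 (plus) for *Pdgfra*, and capitals mark matches to the motifs searched. The start that each window is set on lies inside the gene span given above, and positions are counted from it, not from the end of the span.

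Pdgfa: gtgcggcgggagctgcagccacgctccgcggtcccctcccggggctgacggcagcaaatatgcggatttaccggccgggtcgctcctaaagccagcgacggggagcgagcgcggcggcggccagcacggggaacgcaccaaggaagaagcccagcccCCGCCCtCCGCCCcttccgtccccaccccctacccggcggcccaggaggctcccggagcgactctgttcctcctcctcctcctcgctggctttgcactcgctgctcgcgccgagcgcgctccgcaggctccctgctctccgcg

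Pdgfd: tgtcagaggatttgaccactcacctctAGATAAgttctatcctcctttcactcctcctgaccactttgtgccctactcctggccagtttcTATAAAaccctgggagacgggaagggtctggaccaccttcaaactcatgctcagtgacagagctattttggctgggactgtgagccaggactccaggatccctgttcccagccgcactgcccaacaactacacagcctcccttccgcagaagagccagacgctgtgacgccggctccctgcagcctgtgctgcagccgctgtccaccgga

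Pdgfra: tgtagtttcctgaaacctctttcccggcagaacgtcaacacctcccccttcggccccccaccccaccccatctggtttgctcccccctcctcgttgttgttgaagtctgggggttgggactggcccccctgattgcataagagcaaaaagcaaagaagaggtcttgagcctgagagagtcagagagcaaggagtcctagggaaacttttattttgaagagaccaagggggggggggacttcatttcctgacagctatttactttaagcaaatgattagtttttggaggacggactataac

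The motifs searched on both strands were the GC box, the TATA box, the CCAAT box, the SOX core, a GATA site and the site of EGR1 and WT1, and the GC box and the EGR1 site can share bases. RefSeq gives *Pdgfa* a second window, chr5:138994232-138994531, with 24 CpG dinucleotides, 67.0% G and C and 1 GC box, and the one printed is the richer in these. The printed *Pdgfa* window held 37 CpG dinucleotides and 73.3% G and C, against a median of 7 and 52.7% over 32851 promoter windows, and 2 GC boxes (GGGCGG or its reverse complement) at -93 and -86 from the start, a motif found in 35.7% of all windows. The *Pdgfd* window held 8 CpG and 56.7% G and C, with a TATA box, written TATAAA, at -160 (13.6% of all windows) and a GATA site, written AGATAA, at -223 (11.2%). The *Pdgfra* window held 5 CpG and 51.0% G and C, and none of the motifs. The CCAAT box, searched by its 5 letters, is found in 37.4% of all windows. The SOX core, searched as AACAAT, is found in 10.7% of them. The EGR1 and WT1 site, searched as GCGGGGGCG, is found in 2.91%. These matches describe the letters in the windows and no binding was measured.

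The first comparison asked how the PDGF genes stood in the day 7 Sertoli cells labelled *RNF20* conditional knockout. The ligand genes *Pdgfa*, *Pdgfb* and *Pdgfc* were lower in both knockout samples than in both WT samples, with mean FPKM at 0.670 to 0.792 of WT, and *Pdgfd* and both receptor genes were higher, by 1.46 to 1.90 times. None of the 6 differences passed the adjusted test in edgeR or in limma, while DESeq2 called *Pdgfra* and *Pdgfrb* (values below). Across all 12880 genes tested, edgeR's quasi-likelihood test with Benjamini-Hochberg adjustment called 0.00% at an adjusted p under 0.05, while 1997 genes (15.5%) had an unadjusted p under 0.05. Of the same 12880 genes DESeq2 called 581 and limma called 0.

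*Pdgfa* encodes the ligand that binds the alpha receptor. It stood at 73.82 and 78.52 FPKM in WT and at 42.4 and 59.69 in knockout. Both knockout samples lay below both WT samples, and they differed more from each other than the WT samples did. The log2 fold change was -0.49 ± 0.17 (SE), with an adjusted p of 0.294 in edgeR.

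*Pdgfb* encodes the ligand that binds both receptors and draws pericytes to vessels. It stood at 50.94 and 51.72 FPKM in WT and at 45.91 and 35.36 in knockout, so that the groups did not overlap. Its log2 fold change was -0.28 ± 0.16 (adjusted p = 0.478 in edgeR), the smallest difference of the 6.

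*Pdgfc* and *Pdgfd* encode the CUB-domain ligands and went in opposite directions. *Pdgfc* stood at 21.35 and 20.42 FPKM in WT and at 16.83 and 14.64 in knockout, a log2 fold change of -0.36 ± 0.14 (adjusted p = 0.336 in edgeR). *Pdgfd*, the ligand of the beta receptor and the least abundant of the 4 ligand genes in all day 7 samples, stood at 4.57 and 4.91 FPKM in WT and at 8.27 and 6.17 in knockout. Its log2 fold change was 0.66 ± 0.15 (adjusted p = 0.205 in edgeR).

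*Pdgfra*, the receptor of mesenchymal progenitors that binds the A, B and C chains, had the widest difference of the 6 at day 7. It stood at 18.49 and 16.62 FPKM in WT and at 38.7 and 28.15 in knockout. Knockout replicate 1 was the highest sample and also the one with the lowest Sertoli cell marker sum. Its fold change was 0.97 ± 0.19 on the log2 scale (adjusted p = 0.168 in edgeR), and 3.58% of all genes tested had one as high or higher. DESeq2 gave the same log2 fold change with an adjusted p of 0.000225.

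*Pdgfrb*, the receptor of pericytes and smooth muscle-like cells, stood at 36.22 and 33.41 FPKM in WT and at 56.07 and 45.42 in knockout. It was the more abundant receptor gene in each of the 4 day 7 samples. On the log2 scale the fold change was 0.58 ± 0.13 (adjusted p = 0.199 in edgeR and 0.0148 in DESeq2), and 7.89% of all genes had one as high or higher.

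None of the 6 genes overlapped between the day 7 groups, 3 being higher and 3 lower, where 51.0% of all genes tested did not overlap (24.8% higher and 26.1% lower). Unadjusted p-values under 0.05 were found for *Pdgfa* (0.0354), *Pdgfd* (0.0095), *Pdgfra* (0.0047) and *Pdgfrb* (0.00885). With 1 knockout sample left, its spread is taken to be that of the WT samples, so calls from these fits are not used. Without knockout replicate 1 the log2 fold changes of *Pdgfa*, *Pdgfb* and *Pdgfc* were -0.28, -0.51 and -0.54. Those of *Pdgfd*, *Pdgfra* and *Pdgfrb* were 0.60, 0.71 and 0.42. Without replicate 2 the 6 values were, in the same order, -0.74, -0.08, -0.20, 0.71, 1.18 and 0.72.

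**Figure D1:**
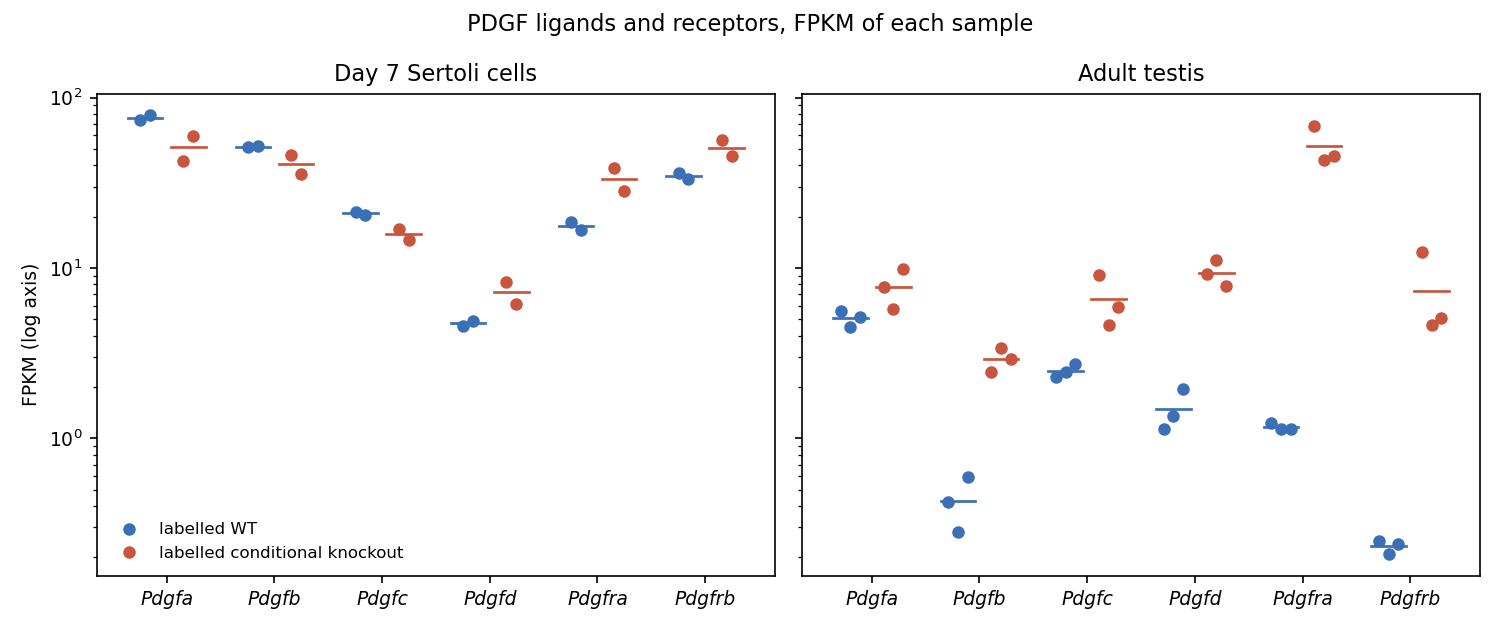
FPKM (log axis) of the 6 PDGF genes in each sample of the day 7 Sertoli cells (left) and the adult testis (right), with points for samples and bars for group means. At day 7 *Pdgfa*, *Pdgfb* and *Pdgfc* lie lower and *Pdgfd*, *Pdgfra* and *Pdgfrb* higher in knockout, and in adult testis *Pdgfra* lies at 1.13 to 1.23 FPKM in WT and at 43.1 to 67.6 in the samples labelled conditional knockout.

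In adult testis the receptor genes differed by far more than the ligand genes. *Pdgfra* was 24.6-fold and *Pdgfrb* 17.7-fold higher in the samples labelled conditional knockout, and *Pdgfd* was 3.58-fold and *Pdgfb* 1.66-fold higher. These folds are on counts scaled by TMM, which sets the libraries so that a typical gene does not differ. *Pdgfa* and *Pdgfc* did not pass the test in edgeR with TMM scaling. With total-count scaling *Pdgfa* and *Pdgfc* were both called, and in limma *Pdgfc* was called and *Pdgfa* was not. The adult samples of both labels differed in most genes: 81.5% of the 15919 genes tested were called at an adjusted p under 0.05, 40.9% higher and 40.6% lower, so that 4 of 6 members called higher stand against a background of 40.9%. Of these 4, *Pdgfb* and *Pdgfrb* passed the filter on low values only through the samples labelled conditional knockout. By the stricter thresholds that the study states (absolute log2 fold change over 1 and FDR under 0.001), 46.7% of all genes passed, 23.0% higher and 23.7% lower, and *Pdgfd*, *Pdgfra* and *Pdgfrb* were among them. In such whole tissue, fewer cells of a type and less RNA per cell cannot be told apart.

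*Pdgfra* stood at 1.23, 1.13 and 1.14 FPKM in adult WT and at 67.6, 43.1 and 45.19 in the samples labelled conditional knockout. The WT samples were close to each other and lay far below the other group. The log2 fold change was 4.62 ± 0.27 (adjusted p = 4.01e-05 in edgeR), and 1.41% of all genes tested had one as high or higher. Without replicate 1 of the labelled knockout it was 4.46.

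*Pdgfrb* was close to the lower end of detection in adult WT, at 0.25, 0.21 and 0.24 FPKM, which are 21, 18 and 20 estimated counts. It passed the filter of 0.5 FPKM in 3 samples only through the samples labelled conditional knockout, which its adjusted p does not allow for. It stood at 12.38, 4.61 and 5.05 FPKM in the samples labelled conditional knockout, with replicate 1 more than the sum of the other two. The log2 fold change was 4.14 ± 0.52 (adjusted p = 0.000476 in edgeR), and 2.93% of all genes had one as high or higher. Without replicate 1 it was 3.60, still called.

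*Pdgfd* was the ligand gene with the widest adult difference in scaled counts. It stood at 1.14, 1.35 and 1.95 FPKM in WT and at 9.24, 11.08 and 7.78 in the samples labelled conditional knockout. The groups did not overlap, and the log2 fold change was 1.84 ± 0.20 (adjusted p = 0.000272 in edgeR). *Pdgfd* was higher without overlap in both tables, as were 15.1% of the genes tested in both.

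*Pdgfb* stood at 0.42, 0.28 and 0.59 FPKM in adult WT and at 2.44, 3.38 and 2.93 in the samples labelled conditional knockout. The estimated counts behind them were 53, 36 and 48 in WT and 109, 165 and 125 in the other group. That is a log2 fold change of 0.73 ± 0.25 (adjusted p = 0.0323 in edgeR). This call was lost with median-ratio scaling (adjusted p = 0.0889), in DESeq2 (0.0701), with the replicate number as a block (0.0975) and without WT replicate 1, 2 or 3 or labelled knockout replicate 2, where the adjusted p was between 0.0614 and 0.116. Like *Pdgfrb*, *Pdgfb* passed the filter only through the samples labelled conditional knockout, as only replicate 3 of the adult WT samples reached 0.5 FPKM. *Pdgfb* was lower in both knockout samples at day 7.

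*Pdgfa* and *Pdgfc* had a direction that turned with the scaling. *Pdgfa* stood at 5.6, 4.47 and 5.17 FPKM in WT and at 7.77, 5.72 and 9.8 in the samples labelled conditional knockout, without overlap. In TMM-scaled counts (CPM) it stood at 19.31, 17.13 and 17.72 against 20.07, 12.88 and 18.61, which do overlap, and the log2 fold change was -0.07 ± 0.20 (adjusted p = 0.751 in edgeR). With total-count scaling it was 0.78 (adjusted p = 0.0115).

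*Pdgfc* stood at 2.3, 2.45 and 2.72 FPKM in WT and at 9.08, 4.63 and 5.93 in the samples labelled conditional knockout. In TMM-scaled counts it was 10.01, 11.28 and 11.87 against 17.64, 9.119 and 10.13, so that only replicate 1 lay above WT. The log2 fold change was 0.15 ± 0.29 (adjusted p = 0.636 in edgeR), -0.04 with median-ratio scaling and 1.0 with total-count scaling (adjusted p = 0.0119).

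The scaling bears on the whole adult table. Over all genes tested the median fold change on the log2 scale was 0.01 with TMM, -0.19 with median-ratio scaling and 0.87 with total counts, and 50.1%, 46.3% and 64.3% of the called genes were higher. These scalings shift all genes nearly alike, so that each gene stays at about the same distance from that median: *Pdgfra* lay 4.61, 4.61 and 4.59 above it, *Pdgfrb* 4.13, 4.15 and 4.10, *Pdgfd* 1.83, 1.83 and 1.82, *Pdgfb* 0.72 in each, and *Pdgfc* 0.14, 0.15 and 0.13, while *Pdgfa* lay at -0.08, -0.08 and -0.09. In limma on FPKM the distance did move, to 1.73 and 0.80 for *Pdgfb* with a pseudocount of 0.1 and 1, to 0.50 and 0.42 for *Pdgfc* and to 3.52 and 1.99 for *Pdgfrb*. In TMM-scaled counts 4 members, *Pdgfb*, *Pdgfd*, *Pdgfra* and *Pdgfrb*, were higher with no overlap between groups. Of all genes tested 85.5% did not overlap, 42.4% higher and 43.1% lower.

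**Figure D2:**
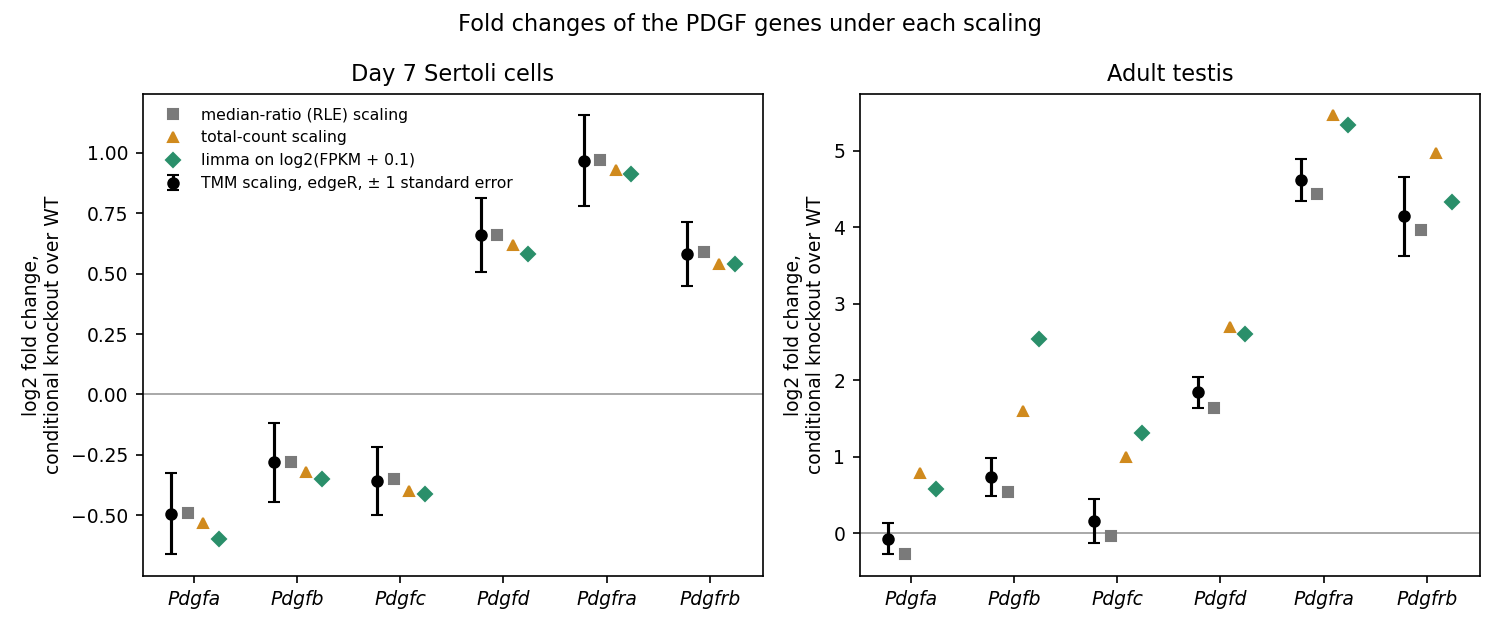
Log2 fold change, conditional knockout over WT, of each PDGF gene at day 7 (left) and in adult testis (right) with TMM scaling in edgeR (black, ± 1 standard error), median-ratio scaling, total-count scaling and limma on log2(FPKM + 0.1). In adult testis *Pdgfa* ranges from -0.27 to 0.78 and *Pdgfc* from -0.04 to 1.31 with the setting, while *Pdgfra*, *Pdgfrb* and *Pdgfd* stay above 0 in each.

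The balance between the ligand genes differed by group in adult testis. *Pdgfa* made up 59.2%, 52.3% and 49.6% of the summed ligand FPKM in WT and 27.2%, 23.1% and 37.1% in the samples labelled conditional knockout. *Pdgfd* made up 12.1%, 15.8% and 18.7% in WT against 32.4%, 44.7% and 29.4%. Neither share overlapped between groups, and *Pdgfd* passed *Pdgfa* as the leading ligand gene in replicates 1 and 2. The share of *Pdgfb* was 3.27% to 5.66% in WT and 8.55% to 13.6% in the other group, and that of *Pdgfc* overlapped (24.3% to 28.7% and 18.7% to 31.8%). In shares of the summed estimated counts, which take no account of length, *Pdgfb* overlapped (8.37% to 11.1% and 8.49% to 15%), while *Pdgfa* (44.8% to 50.8% and 25.5% to 36.7%) and *Pdgfd* (11.7% to 15.4% and 31.9% to 41.5%) did not.

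At day 7 *Pdgfa* and *Pdgfb* held most of the ligand FPKM in each sample. The share of *Pdgfa* was 49.0% and 50.5% in WT and 37.4% and 51.5% in knockout, and that of *Pdgfb* 33.8% and 33.2% against 40.5% and 30.5%, so that the knockout samples lay on both sides of WT. *Pdgfd* had 3.03% and 3.16% in WT and 7.29% and 5.33% in knockout, without overlap. *Pdgfc* had between 12.6% and 14.8% in the 4 samples.

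The sum of the receptor genes over that of the ligand genes was higher in knockout in both tables. At day 7 it was 0.363 and 0.322 in WT and 0.836 and 0.635 in knockout, with the ligand sum lower (151 and 156 against 113 and 116 FPKM) and the receptor sum higher (54.7 and 50.0 against 94.8 and 73.6). In adult testis it was 0.156, 0.157 and 0.132 in WT and 2.8, 1.92 and 1.9 in the samples labelled conditional knockout, and the ligand sum was higher too (8.55 to 10.4 against 24.8 to 28.5 FPKM). The smallest p of an exact permutation test is 0.33 in the day 7 table and 0.1 in the adult table, so these ratios are given as values. *Pdgfrb* was the higher receptor gene at day 7, with *Pdgfra* over *Pdgfrb* at 0.51 and 0.497 in WT and 0.69 and 0.62 in knockout, and *Pdgfra* the higher in adult testis, at 4.75 to 5.38 in WT and 5.46 to 9.35 in the other group.

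**Figure D3:**
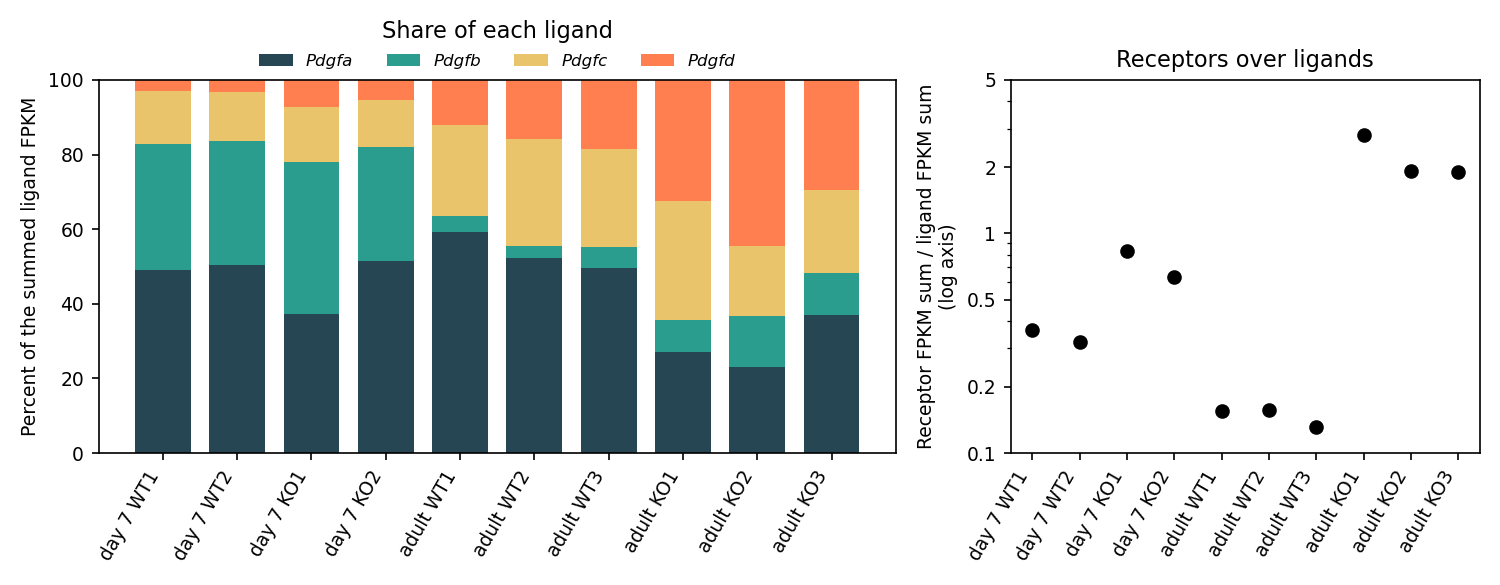
Left, share of each ligand gene in the summed FPKM of the 4 ligand genes, 1 bar per sample, with KO for samples labelled conditional knockout. Right, summed receptor FPKM over summed ligand FPKM per sample (log axis), which is 0.132 to 0.157 in adult WT and 1.9 to 2.8 in the adult samples labelled conditional knockout.

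Markers of other cells moved with the receptor genes. At day 7 all 7 peritubular myoid markers and all 7 fibroblast markers were higher in both knockout samples, with summed FPKM of 1969 to 2090 in WT against 3645 to 3694 and of 2150 to 2241 against 3353 to 3948. The Sertoli cell list was lower in sum, 1257 to 1405 against 821.7 to 1082, with 7 of 11 tested markers lower and 1 higher without overlap. All 8 spermatogonium markers were lower without overlap (202.8 to 210.0 against 140.6 to 145.1 in sum), and so were the 3 spermatocyte markers tested (6.43 to 8.96 against 4.38 to 4.82 over the list). Of all genes at day 7, 24.8% were higher and 26.1% lower without overlap. The pericyte list overlapped (81.99 to 83.89 against 73.65 to 85.92), and its defining genes *Rgs5* and *Kcnj8* were at 0.28 FPKM or less in the 4 samples. The Leydig cell list was 156.1 to 161.5 against 213.8 to 302.3 in sum, with *Cyp17a1* and *Lhcgr* at 0.19 or less. None of these markers was called at day 7 by edgeR, which called no gene in that table.

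In adult testis the lists of interstitial cells differed more widely, where 40.9% of all genes rose and 40.6% fell. The fibroblast list rose in 7 of 7 markers (41.48 to 56.03 against 1298 to 3400 FPKM in sum), the Leydig cell list in 7 of 7 (4019 to 5618 against 63490 to 88130) and the pericyte list in 6 of 6 (3.1 to 5.27 against 26.52 to 47.91). The myoid list overlapped in sum (299.5 to 371.7 against 239.7 to 450.7), with 5 of 7 markers rising and 1 falling. The falling marker, *Actg2*, held most of the WT sum, at 255.04 to 335.45 FPKM against 1.67 to 3.6 in the other group. Of 12 Sertoli cell markers 3 rose and 2 fell, with sums of 1066 to 1427 against 2041 to 6981. The endothelial list rose in 5 of 6 and the macrophage list in 7 of 7. Of 7 spermatogonium markers tested 1 rose and 3 fell (261.7 to 293.4 against 11.41 to 413.7), and of 6 spermatocyte markers 4 fell (438.9 to 459.1 against 1.72 to 142.4). All 8 spermatid markers fell, from 123100 to 191600 FPKM in sum in WT to 3.38 to 85.98. The part of these other cell types in the PDGF values was not tested.

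Ratios to marker lists set each ligand gene beside the Sertoli cell list only. *Pdgfra* was set beside the fibroblast and Leydig cell lists, and *Pdgfrb* beside the myoid and pericyte lists. The endothelial list was not used for any ratio. A ratio is log2(FPKM + 0.1) of the gene minus the mean of the list in the same sample, and 8 ratios were computed in each table. In adult testis *Pdgfra* was higher relative to the fibroblast list, at -0.32 ± 0.18 (SD, n = 3) in the samples labelled conditional knockout against -0.99 ± 0.29 in WT, a difference of 0.67 (exact two-sided permutation p = 0.1, the smallest possible). Relative to the Leydig cell list *Pdgfra* differed by 0.70 (exact permutation p = 0.1), against 0.04 with a pseudocount of 1 (exact permutation p = 0.9).

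*Pdgfrb* differed by 1.48 relative to the adult pericyte list (-0.47 ± 0.08 in WT and 1.01 ± 0.36, SD, n = 3; exact permutation p = 0.1). Relative to the myoid list it differed by 2.64, or by 1.19 with a pseudocount of 1, and that list holds *Actg2*, which fell from 255.04 to 335.45 FPKM in WT to 1.67 to 3.6 while 5 other members rose. At day 7, on the other hand, *Pdgfrb* was lower relative to the myoid list by 0.52, and *Pdgfra* lower relative to the fibroblast list by 0.26, each without overlap (exact permutation p = 0.33, the smallest possible). With a sample left out these differences ranged from -0.6 to -0.44 for *Pdgfrb* and from -0.36 to -0.15 for *Pdgfra*. Both receptor genes were thus higher in the day 7 knockout in FPKM and lower against these lists. *Pdgfrb* was higher relative to the pericyte list by 0.40 and *Pdgfra* relative to the Leydig cell list by 0.41. The last value was 0.12 with a pseudocount of 0.01, 0.17 without knockout replicate 1 and 0.64 without replicate 2.

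Of the ligand genes, *Pdgfa* differed relative to the Sertoli cell list by -0.06 in each table, less than the spread between samples (exact permutation p = 1). At day 7 *Pdgfb* differed by 0.18 and *Pdgfc* by 0.12 with overlap, and *Pdgfd* by 1.12 without overlap, a value that was 0.43 without knockout replicate 1 and 1.80 without replicate 2. In adult testis the list mean ranged widely among the samples labelled conditional knockout, at 2.85 in replicate 1 and 5.45 and 5.98 in replicates 2 and 3, so that the ratio of *Pdgfa* was 0.13 in replicate 1 and -2.91 and -2.67 in the others. The adult differences were 1.90 for *Pdgfb* (exact permutation p = 0.1), 1.96 for *Pdgfd* (exact permutation p = 0.2) and 0.67 for *Pdgfc* (exact permutation p = 1), and without replicate 1 they were 1.07, 1.01 and -0.54. With a pseudocount of 1 the difference of *Pdgfb* was 0.83. In CPM (estimated counts scaled to the library total) in place of FPKM it was 0.90 (exact permutation p = 0.5), that of *Pdgfc* 0.29 and that of *Pdgfd* 2.01, and the length that FPKM divides by differed between groups for *Pdgfb* (below).

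**Figure D4:**
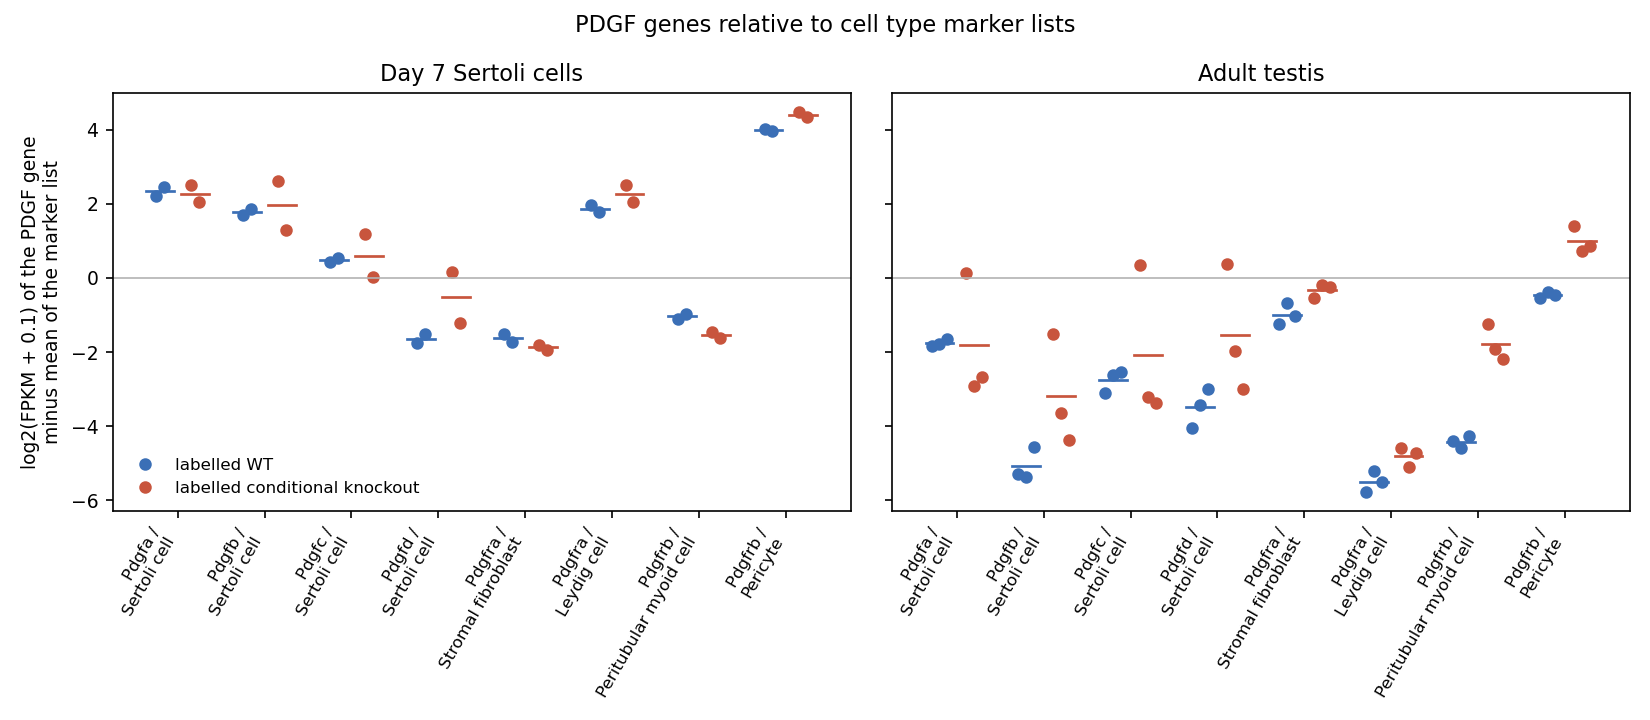
Log2(FPKM + 0.1) of each PDGF gene minus the mean of a cell type marker list in the same sample, at day 7 (left) and in adult testis (right), with points for samples and bars for group means. *Pdgfrb* lies above WT relative to both lists in adult testis, and below WT relative to the myoid list at day 7.

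The length that links an estimated count to its FPKM value differed between adult groups for *Pdgfb*. Dividing the count by FPKM and library size gave 7614, 7851 and 5012 bases in WT and 2807, 3012 and 2765 in the samples labelled conditional knockout, a ratio of group means of 2.39. Only 7 of 12623 genes (0.0555%) had a ratio as high, counting genes with at least 0.2 FPKM in every adult sample. FPKM of *Pdgfb* was 6.78-fold higher and its mean estimated count 2.91-fold. *Pdgfc* gave 3305, 3265 and 3307 bases in WT against 2471, 2652 and 2415, a ratio of 1.31 that 0.871% of genes reached. For *Pdgfra* (6213 to 6376 bases) and *Pdgfrb* (5068 to 5234) the ratios were 1.01 and 1, and at day 7 *Pdgfb* lay between 2508 and 2615. This length is the mean over the transcripts that RSEM assigned reads to. The comparison was chosen after the values were seen, and which transcripts were counted was not tested.

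**Figure D5:**
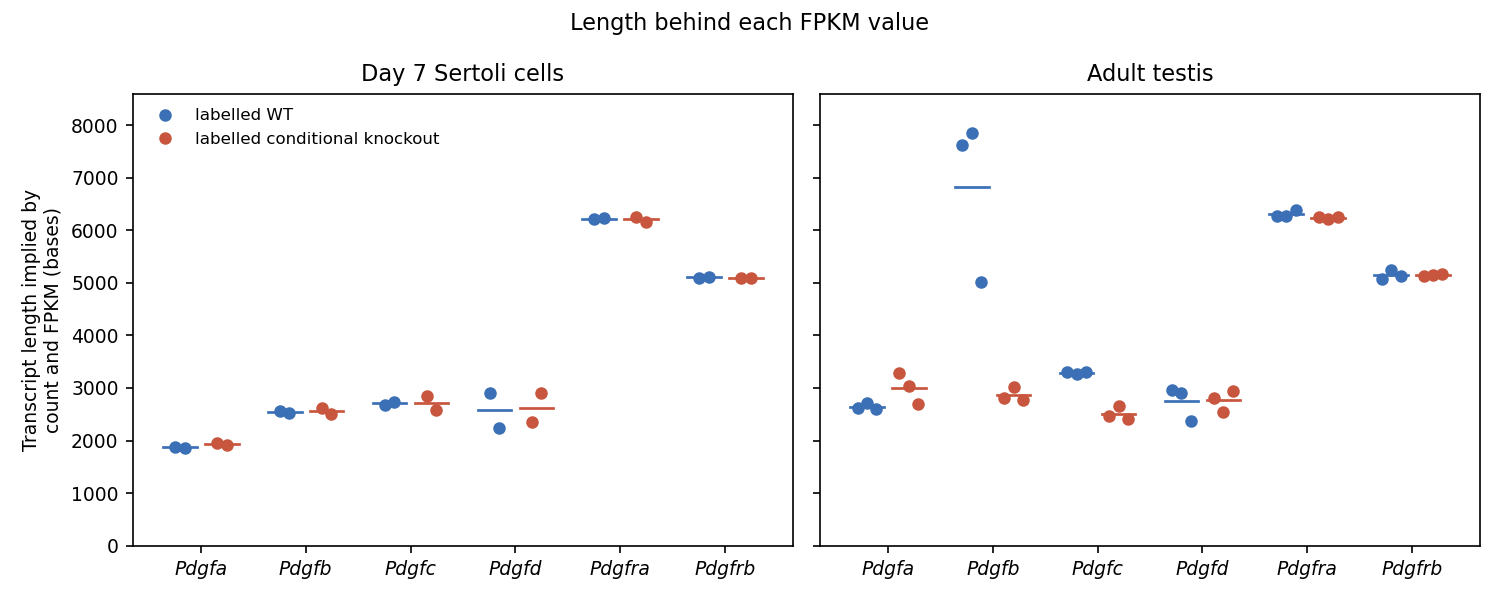
Transcript length in bases implied by the estimated count, the FPKM value and the library size of each PDGF gene, at day 7 (left) and in adult testis (right), with points for samples and bars for group means. *Pdgfb* lies at 5012 to 7851 bases in adult WT and at 2765 to 3012 in the samples labelled conditional knockout.

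Genes that process or bind the ligands were mostly higher in adult testis. Of 10 accessory genes, 9 rose and 0 fell, where 40.9% of all genes tested rose and 40.6% fell, with a median log2 fold change of 3.48 against 0.01 over all genes tested. The widest rises were those of *Pdgfrl*, a receptor-like gene without a kinase (log2 fold change 4.83, adjusted p = 0.000163 in edgeR), *Nrp1*, a co-receptor (4.04, adjusted p = 0.000119), and *Lrp1*, an endocytic receptor (3.96, adjusted p = 0.000158). At day 7 edgeR called none of the 10 and DESeq2 called 1 higher. Without overlap 5 were higher and 1 lower, where 24.8% of all genes were higher and 26.1% lower. The extremes of the 10 were *Plat*, which encodes the tissue plasminogen activator that cuts the C ligand (1.01, adjusted p = 0.464), and *Furin*, a protease of the secretory pathway (-0.33, adjusted p = 0.25). *Plat* overlapped, at 19.58 to 22.13 FPKM in WT and at 19.08 and 62.6 in the knockout samples.

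Of 26 signal relay genes downstream of the receptors, 19 rose and 5 fell in adult testis, with a median of 1.08, against 40.9% and 40.6% of all genes. The widest rises were those of *Pik3r1*, a regulatory subunit of PI3 kinase (3.79), *Grb2*, an adaptor (2.57), and *Ptpn11*, a phosphatase (2.51), while *Nras* (-1.64), *Map2k2* (-1.54) and *Nck1* (-0.88) fell, all with an adjusted p of 0.000552 or less in edgeR. With total-count scaling and in limma 2 of the 26 fell in place of 5, where 4775 and 4887 to 4971 of all 15919 genes tested fell. Without WT replicate 2, and without labelled knockout replicate 2, 3 of the 26 fell, where 6130 of 16409 and 6086 of 16225 genes tested fell. *Nck1* had a mean FPKM of 21.2 in WT and 21.1 in the other group. At day 7 edgeR called none of the 26 and DESeq2 called 1 lower, with *Shc1* at 0.27 (adjusted p = 0.403) and *Pik3cb* at -0.83 (adjusted p = 0.149) as extremes.

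Of 11 genes that dampen receptor signalling, 4 rose and 4 fell in adult testis, with a median of -0.23, and these shares are near those of all genes (40.9% and 40.6%). Those that rose included *Socs3* (4.61), *Spry2* (3.43) and *Spry4* (2.33), feedback inhibitors, and those that fell included *Cbl* (-2.50), the ubiquitin ligase of activated receptors, and the phosphatase genes *Ptprj* (-1.81) and *Acp1* (-1.23). With median-ratio scaling and in DESeq2 7 of the 11 fell, where 6928 and 7035 of all 15919 genes tested fell. At day 7 edgeR called none and DESeq2 called 2 higher, and *Spry1* was highest at 1.10 (adjusted p = 0.141 in edgeR) and *Ptpn2* lowest at -0.17 (adjusted p = 0.408).

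Early response genes, which growth factors induce within minutes, rose in 10 of 12 cases in adult testis, against 40.9% of all genes, with a median of 4.09. *Fos* rose by 6.33, *Egr1* by 5.21 and *Ccl2* by 4.82 on the log2 scale, and the spread was wide, with *Egr1* at 31.01 to 182.95 FPKM in the samples labelled conditional knockout. *Fosl1* (-5.07) and *Srf* (-0.94) fell. With total-count scaling and in limma 1 of the 12 fell, where 4775 and 4887 to 4971 of all 15919 genes tested fell. The FPKM of *Srf* overlapped, at 9.74 to 11.53 in WT and 8.52 to 10.77 in the other group. At day 7 edgeR called none and DESeq2 called 1 lower. *Ccl2* was at 71.04 to 77.51 FPKM in WT and at 89.21 and 654.47 in knockout (adjusted p = 0.343 in edgeR), and *Ier3* at 387.11 to 389.42 against 209.53 and 247.05 (adjusted p = 0.132).

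Related growth factor genes included the closest day 7 approach to the threshold. *Vegfd*, a ligand of the same cystine-knot family, was at 3.29 and 3.88 FPKM in WT and at 28.29 and 30.74 in knockout (log2 fold change 2.97, adjusted p = 0.0961 in edgeR), and *Vegfa* was lowest, at 109.13 and 109.53 against 61.83 and 64.73 (-0.73, adjusted p = 0.119). Of 14 tested at day 7 edgeR called none, and DESeq2 called 2 higher and 1 lower. In adult testis 11 of 15 rose and 3 fell, against 40.9% and 40.6% of all genes, with a median of 3.27. With total-count scaling and in limma 0 of the 15 fell, where 4775 and 4887 to 4971 of all 15919 genes tested fell. *Csf1* (4.38), its receptor gene *Csf1r* (4.24) and *Vegfd* (3.74) had the widest rises, and *Flt3* (-1.41), *Flt1* (-1.26) and *Flt4* (-0.998) fell, of which none fell with total-count scaling.

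Genes with the most similar pattern were found over the 10 samples as the root mean square difference of log2(FPKM + 0.1), centred on the mean within each table, among 12378 genes tested in both. For *Pdgfra* they were *Tmem119* (0.129), *Lyz1* (0.174) and *Xdh* (0.18), against a median of 1.67 over all genes. For *Pdgfrb* they were *Pear1* (0.132), *Ccn1* (0.154) and *Ifitm2* (0.155), against a median of 1.32. For *Pdgfd* they were *Rasgrp3* (0.139), *Ern1* (0.156) and *Cpxm1* (0.159).

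The other ligand genes were compared in the same way. The nearest to *Pdgfa* were *Srek1ip1* (0.124), *Pold1* (0.14) and *Entpd4b* (0.172), the nearest to *Pdgfb* were *Zfp229* (0.113), *Cmtm8* (0.125) and *Nrip1* (0.145), and the nearest to *Pdgfc* were *Prkca* (0.111), *Gclc* (0.131) and *Lrrc14b* (0.136). The medians over all genes were 0.724, 0.746 and 0.694. Among the PDGF genes themselves the closest pairs were *Pdgfb* and *Pdgfd* (0.351), *Pdgfa* and *Pdgfc* (0.404) and the 2 receptor genes (0.448). These measures rest on FPKM. In CPM the closest pairs were *Pdgfa* and *Pdgfc* (0.267), the 2 receptor genes (0.353) and *Pdgfb* and *Pdgfc* (0.423), with *Pdgfb* and *Pdgfd* at 0.573. Of the 3 nearest genes of each member, 2 were the same in CPM for *Pdgfd* and 0 for each of the other 5.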

How the data were processed

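Poly(A) RNA of 4 day 7 Sertoli cell samples and 6 adult testis samples was sequenced on the BGISEQ platform. For mapping, the authors used HISAT (genome, GRCm38.p6) and Bowtie2 (reference genes; versions not given in the sources used here), and RSEM for FPKM. The deposited tables give estimated counts, FPKM and TPM per sample, and the deposited TPM values were not used. That text covers day 7, and the adult table is taken to be made alike from its columns. Between 10.7% and 13.2% of genes had a count that was not whole, and counts were rounded. The adult table also holds 20 columns without values. For day 7, 3 individuals per group are stated in the methods and 2 samples were analysed. The growth field of the labels reads adult for the day 7 samples too.

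Each table was fitted alone with edgeR 4.0.16 (R 4.3.3), TMM scaling and Benjamini-Hochberg adjustment over all genes tested, which reached 0.5 FPKM in 2 (day 7) or 3 (adult) samples. Standard errors were taken from the fold change and its test statistic. Alternatives were other scalings and filters, DESeq2 1.42.0, limma 3.58.1 on log2(FPKM + 0.1) or log2(FPKM + 1), where the pseudocount shrinks the FPKM ratio of low genes, the replicate number as a block, each sample left out and, chosen after seeing the data, estimated counts in place of FPKM in shares, ratios and likeness. The test was also tried on simulated counts, and the outcome of that trial is not used here. In each pathway list up to 3 called genes with the largest rise and fall are named, or the extremes where none is called, and 3 genes of most similar pattern per member. *Sox9*, *Wt1*, *Acta2*, *Col1a1*, *Actg2*, *Rgs5*, *Kcnj8*, *Cyp17a1*, *Lhcgr*, *Ddi1* and the genes of opposite direction were named after their values were seen. The members and lists were chosen with earlier results of these data known. Plots and tables used Python 3.11.15.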

Additional observations from a re-analysis of the deposited data

Results flagged for a closer look

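*Pdgfb* was lower in both knockout samples at day 7 (log2 fold change -0.28) and higher in all 3 adult samples labelled conditional knockout (0.73), each without overlap with WT. The difference between the tables was not tested, and 1434 of 12378 genes tested in both (11.6%) showed the same pair of directions.

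Of 73 genes of the 5 pathway lists tested in both tables, 9 showed it too (12.3%, near the share of all genes), among them *Furin* (-0.33 at day 7 and 3.40 in adult testis), *Ier3* (-0.73 and 3.79) and *Vegfa* (-0.73 and 1.59), and *Srf* alone showed the opposite pair (0.17 and -0.94), found in 6.67% of all genes, though its FPKM overlapped in adult testis. The others were *Kit* (-0.69 and 3.51), *Src* (-0.52 and 2.38), *Sos2* (-0.40 and 2.29), *Sos1* (-0.32 and 1.18), *Map2k1* (-0.19 and 1.88) and *Akt2* (-0.09 and 0.80). These differences between the tables were not tested either.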

How the results depend on the processing

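At day 7 all 6 PDGF genes kept their direction in the alternatives run. DESeq2 called *Pdgfra* (0.97) and *Pdgfrb* (0.59), 2 of the 6, and 581 of all 12880 genes tested, 388 higher and 193 lower. With each sample left out in turn the log2 fold changes were -0.74 to -0.28 for *Pdgfa*, -0.51 to -0.08 for *Pdgfb*, -0.54 to -0.20 for *Pdgfc*, 0.52 to 0.80 for *Pdgfd*, 0.71 to 1.18 for *Pdgfra* and 0.42 to 0.72 for *Pdgfrb*. The genes called then ranged from 0 to 5049 (0 to 2707 higher, 0 to 2342 lower) and the PDGF genes called from 0 to 6.

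In adult testis *Pdgfd* (1.64 to 2.69), *Pdgfra* (4.43 to 5.46) and *Pdgfrb* (2.64 to 4.97) kept their call in each alternative. *Pdgfa* turned to 0.78 with total-count scaling and to 0.57 and 0.50 in limma with a pseudocount of 0.1 and 1, and lay between -0.11 and 0.11 with a sample left out, above 0 without labelled knockout replicate 2. *Pdgfb* lost its call with median-ratio scaling (0.54) and DESeq2 (0.54), was at 1.59 with total-count scaling and at 2.54 and 1.45 in limma, and lay between 0.58 and 0.96 with a sample left out. *Pdgfc* turned to -0.04 with median-ratio scaling and with DESeq2, was called at 1.0 with total-count scaling and at 1.31 and 1.07 in limma, and lay between -0.07 and 0.34 with a sample left out, under 0 without labelled knockout replicate 1. By the study's thresholds 7432 genes passed in place of 12969. The cause of these differences was not tested, except that total-count scaling moves all genes by construction.

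The ratio of *Pdgfa* to the Sertoli cell list turned to 0.03 (day 7) and 0.10 (adult) in CPM in place of FPKM, an alternative chosen after seeing the data. Other turns in direction came with a sample left out: at day 7 *Pdgfa* ranged from -0.30 to 0.17, *Pdgfb* from -0.48 to 0.85 and *Pdgfc* from -0.46 to 0.70, and in adult testis *Pdgfa* from -1.03 to 0.48 and *Pdgfc* from -0.54 to 1.32. Counts of called genes per pathway list and direction, compared under each setting, moved by over 1.5 times in 14 of 140 cases in adult testis. At day 7 some of these counts moved from 0 in DESeq2 and with 1 knockout sample left.

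Whether the replicate numbers pair the samples was not settled. Deviations of same-numbered samples correlated by 0.0381 at day 7 and by 0.0162, 0.0175 and 0.0249 in adult testis, and each adult sample correlated best with its own number. With 2 samples per group the day 7 correlations can differ only in sign, so they cannot tell whether samples are paired. With the replicate number as a block 0 genes were called at day 7 and 12209 in adult testis, and *Pdgfb* had a log2 fold change of 0.73 with an adjusted p of 0.0975 in edgeR.

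The few counts of *Pdgfrb* and *Pdgfb* in adult WT and 2 samples per group at day 7 limit the precision.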
